A study of Danio rerio with 18 samples.

Results

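All 9 arrays of Lycorine-treated embryos were compared with all 9 arrays of DMSO-treated embryos, in an additive model of treatment and sort, to describe the response that was common to 3 sorted cell fractions of the zebrafish embryo. Membership followed the sample titles, and the comparison used 18 of the 18 arrays of the series. Embryos were of the AB strain and carried both reporter transgenes, Runx1+23:GFP and kdrl:DsRed2. Pools of them were kept from 2 to 3 days post fertilization (dpf) in 75 µM Lycorine with 1% DMSO, or in 1% DMSO alone, so the control arrays carried the same solvent and both reporters. At 3 dpf the embryos were dissociated and sorted into cells with the GFP of the Runx1 enhancer (Runx+, labelled as hematopoietic stem and progenitor cells, HSPC), cells with the DsRed2 of the kdrl promoter (kdrl+, labelled as endothelial cells) and cells with neither colour (negative, labelled as all cell types). There were 3 arrays of each sort under each treatment, numbered 1 to 3 and called biological replicates, with no statement that a number marked a shared pool, so p-values measure the spread between these samples. A sort is defined by a reporter and not by a lineage, and each array holds the RNA of many cells, amplified before labelling.

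Lycorine is an alkaloid of daffodils and related plants. It is known to bind the eukaryotic ribosome and to inhibit protein synthesis, and in mammalian cells it has been used as an inhibitor of inflammatory signalling and of growth. A cell whose translation is slowed can respond by the integrated stress response, in which the factor Atf4 switches on amino acid and stress genes, or by changes in messenger RNA decay, since many short-lived messages are degraded as they are translated. Csf3, the granulocyte colony-stimulating factor, and the chemokine Cxcl8 are signals of this short-lived kind that call and feed neutrophils. These points are background, and none of them was measured here.

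Values are deposited log2 intensities, for which a difference of 1 is a doubling. Levels of different genes are not comparable on an array, so each gene is compared only with itself. Array medians lay between 4.87 and 5.12. The gene whose promoter drives the endothelial reporter, kdrl, lay between 9.71 and 11.04 in the 6 kdrl+ arrays and between 5.74 and 7.58 in the other 12. The thrombocyte and stem cell integrin itga2b had its highest median in Runx+ arrays, at 6.32, against 5.22 in kdrl+ and 4.49 in negative arrays. The runx1 transcript was not highest in the Runx+ arrays, where it ranged from 4.70 to 5.44, against 5.43 to 6.02 in kdrl+ arrays. None of the 3 genes passed the test between treatments (kdrl -0.11 ± 0.20, adjusted p = 0.767; runx1 -0.33 ± 0.12, adjusted p = 0.0931; itga2b -0.42 ± 0.23, adjusted p = 0.267; additive limma fit). The DMSO arrays numbered 2 stood apart from the rest in genes of liver, exocrine pancreas and gut, as given with that list, and counts led with are also given without them.

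With Lycorine, the called members of the lists of inflammation (7 of 31 measured) and of skeletal muscle (14 of 33) were all lower. Those of neurons (7 of 35), of the clustered protocadherins (8 of 28) and of mitosis (8 of 51) were all higher. Lists and members were chosen with earlier results of these data known, so these counts describe and do not test. Most mitosis calls were lost without the DMSO arrays numbered 2. Most skeletal muscle calls were lost without the Lycorine arrays numbered 3, as were most calls over all genes. Members of the immediate early (32 measured), heat shock (21) and tRNA synthetase (20) lists had 0 calls, and 2 of 65 ribosomal protein genes were called. At the 6.24% called over all genes, lists of these sizes would hold few calls in any case. No lack of response is read from them. Of 19247 genes, 1201 passed an adjusted p of 0.05 in the additive limma fit (6.24% of all), 539 higher (2.8%) and 662 lower (3.44%). The response was of modest size. A difference of more than 2-fold was reached by 47 of the higher and 79 of the lower genes, and a difference of more than 4-fold by 0 higher and 4 lower genes. The median difference over all genes was -0.07, and its median standard error (SE) was 0.16. When arrays were rescaled by cyclic loess or by median centring, 1396 and 1273 genes passed, of which 55.4% and 55.9% were higher, against 44.9% in the deposited scale, so the balance of rises and falls is not settled by these data.

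The number of calls rested on how same-numbered arrays were counted. Within DMSO, arrays that shared a number deviated together from their group means (median correlation across genes 0.33 over 9 pairs, against -0.17 over 18 pairs with different numbers). Within Lycorine the median was 0.02 over 9 pairs that shared a number (from -0.36 to 0.42) and -0.11 over 18 that did not (from -0.40 to 0.41). The deviations of a group's 3 arrays cancel out, so values for different numbers largely follow from those for shared numbers and add no support. The additive fit counts the 9 arrays of a treatment as separate, which they are not if a number marks a pool. With each treatment and number as a random block, 271 genes passed, 128 higher and 143 lower, and all 271 were among the 1201. The balanced design gives both fits the same differences, so this overlap is no separate evidence. The random block fit used 1 correlation of 0.13 for both treatments, although same-numbered arrays deviated together more in DMSO than with Lycorine. Its degrees of freedom are counted by arrays, so if a number marks a pool it allows for this only in part. On the means of the 3 same-numbered arrays, 3 against 3, limma called 2 genes (0.0104% of all), csf3b and f10, both lower and both with an adjusted p of 0.05 that lay just under the threshold before rounding. At an unadjusted p under 0.05 that fit held 3171 genes. Without the 3 DMSO arrays numbered 2 the additive fit called 620 genes, without the Lycorine arrays numbered 3 it called 81, and without the DMSO arrays numbered 1 it called 2695.

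**Figure D1:**
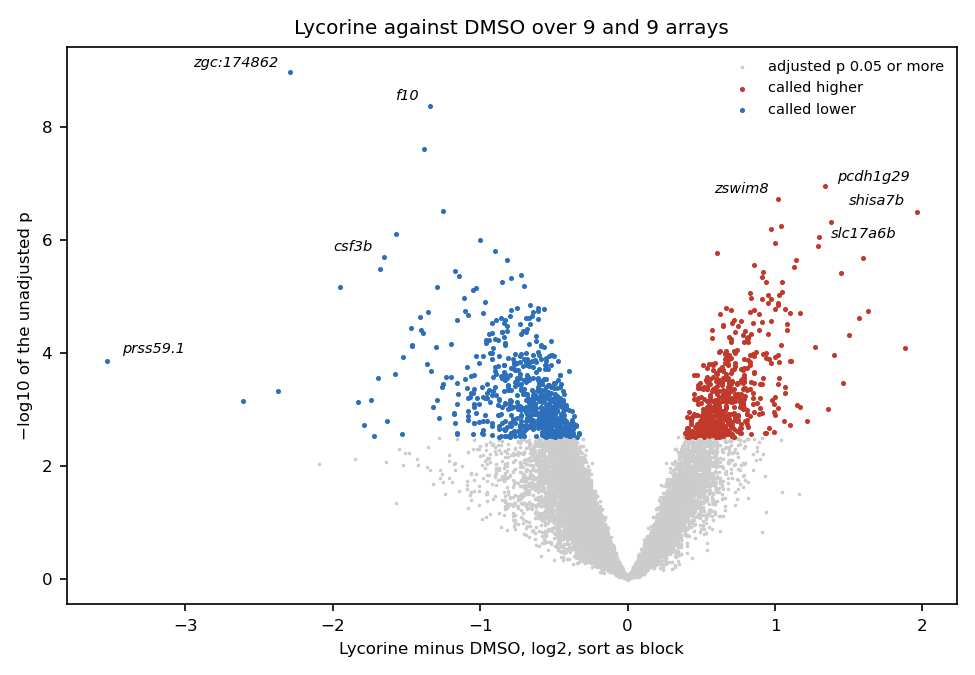
Each point is 1 of 19247 genes, with the log2 difference of Lycorine minus DMSO over 9 and 9 arrays on the x axis and -log10 of its unadjusted p in the additive limma fit on the y axis. The 539 higher calls reach smaller differences than the 662 lower calls, of which prss59.1 at -3.53 is farthest left and zgc:174862 at -2.29 is highest.

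The response did not differ detectably between the sorts. The test of a treatment by sort interaction called 0 of 19247 genes in limma (0%). At an unadjusted p under 0.05 it held 472 genes, with 35 of the 1201 called genes among them. Both are smaller shares than chance alone gives at that threshold, but the first depends on the setting. It was 725 genes with the random block and 1423 with array weights. Leaving out 1 array gave 1445 (DMSO Runx+ replicate 1), 1541 (DMSO kdrl+ replicate 3) and otherwise 324 to 708. Counts of 1423 and more are larger shares than chance gives. The 35 are partly fixed by the choice of genes, since the additive fit leaves the interaction in its residuals and calls genes with small ones. The depth of this test is limited by 3 arrays per group: the median SE of a difference between the effects of a pair of sorts was 0.38. For a typical gene that gives an unadjusted 95% interval of 0.81 to either side. Adjustment over 19247 genes raises the size needed for a call, so 0 calls do not exclude differences larger than that. Tested within one sort, limma called 0 genes in negative cells, 0 in Runx+ cells and 10 in kdrl+ cells (0.052%), and 9 of those 10 were also called over the 3 sorts. Called genes had the same sign in all 3 sorts in 1200 of 1201 cases, against 9798 of all 19247 genes (50.9%), a share that the choice of genes by their common effect largely fixes. The median rise over the called higher genes was 0.53 in negative, 0.76 in Runx+ and 0.69 in kdrl+ cells, and the median fall over the called lower genes was -0.60, -0.70 and -0.59.

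The 5 genes with the smallest interaction p all had an adjusted p of 1 for it. Among them, ccl38.1, a CC chemokine, differed by -0.74 in negative, -0.35 in Runx+ and -1.99 in kdrl+ cells, and it fell over the 3 sorts (-1.03 ± 0.21, adjusted p = 0.0117, additive limma fit). Its DMSO kdrl+ arrays stood at 5.95, 5.97 and 7.01, above all its other arrays, which lay at 5.07 or lower. The class I histocompatibility gene mhc1haa differed by -0.41, -1.50 and 0.12 in the same order of sorts, with no call over them (-0.60 ± 0.20, adjusted p = 0.0688). Its 3 DMSO Runx+ arrays were at 7.44, 7.99 and 7.84 and the 3 Lycorine Runx+ arrays at 6.28, 6.51 and 5.99, with no overlap within that sort. The remaining genes were sh3tc2 (-0.39, -1.17 and 0.88), fam167b (-0.42, -0.65 and 0.93) and hes2.1 (0.11, 1.17 and -0.73). One called gene lacked a common sign, cfd, the complement protease factor D, with -1.06, -1.32 and 0.18 (-0.73 ± 0.22 over the sorts, adjusted p = 0.0487, and 0.118 with the random block).

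The granulocyte colony-stimulating factor gene csf3b ranged over the 9 DMSO arrays from 5.92 to 9.19 with a median of 7.67, and over the 9 Lycorine arrays from 5.38 to 6.44 with a median of 5.80. Only DMSO negative replicate 3, at 5.92, reached down into the Lycorine range. The gene fell by 1.65 ± 0.25 on the log2 scale (3.15-fold, adjusted p = 0.0021, additive limma fit). In kdrl+ cells, where it was highest in DMSO, the arrays were at 8.45, 8.19 and 9.19, against 6.44, 6.11 and 6.25 with Lycorine. Its effects were -1.16 in negative, -1.46 in Runx+ and -2.34 in kdrl+ cells, a spread within the error of the interaction test (unadjusted p = 0.128).

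Coagulation factor X, the protease that turns prothrombin into thrombin, is encoded by f10. Its DMSO arrays lay between 7.34 and 8.02 with a median of 7.75, and its Lycorine arrays between 5.82 and 6.75 with a median of 6.48. The groups did not overlap in any sort, and the effects of -1.36, -1.23 and -1.43 were close to each other. The fall was -1.34 ± 0.13 (2.53-fold, adjusted p = 4.03e-05, additive limma fit). Over the other coagulation genes no call was made: of 25 measured coagulation factors and fibrinogen genes, 0 were higher and 1, f10, was lower, with a list median of -0.44. Without the DMSO arrays numbered 2, which are described with the liver list, the difference of f10 was -1.35, and the median of the coagulation factors and fibrinogen list was -0.14 with 2 lower calls.

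The vesicular glutamate transporter gene slc17a6b, which fills synaptic vesicles of excitatory neurons, rose. DMSO arrays ranged from 5.09 to 7.29 with a median of 6.30, and Lycorine arrays from 6.44 to 8.78 with a median of 7.55. Over the sorts these ranges overlapped, and the gene was lower in kdrl+ than in negative cells under both treatments. Within each sort the 3 and 3 arrays did not overlap. The difference was 1.3 ± 0.18 (adjusted p = 0.0014), with 1.43, 1.39 and 1.07 in negative, Runx+ and kdrl+ cells. On the means of same-numbered arrays its adjusted p was 0.0502.

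The clustered protocadherin pcdh1g29, one of a large family of cell surface molecules that neurons use to tell their own branches from those of others, rose by 1.34 ± 0.16 (adjusted p = 0.000532). Its DMSO arrays lay between 4.84 and 7.78 with a median of 6.15, and its Lycorine arrays between 6.67 and 8.16 with a median of 7.86. Within each sort every Lycorine array was above every DMSO array, by effects of 0.88, 1.49 and 1.65. DMSO negative replicate 3, at 7.78, was the highest DMSO array and stood apart from the others.

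**Figure D2:**
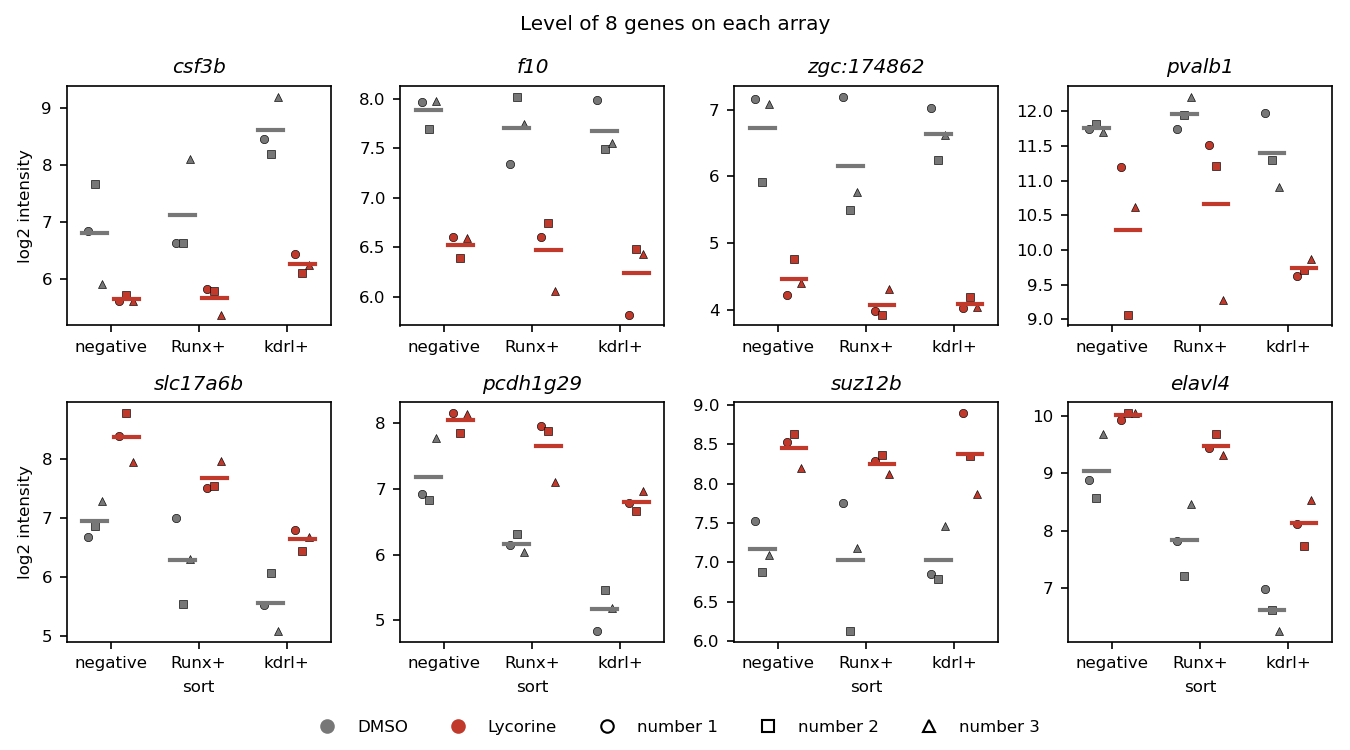
Each panel shows 1 gene, with the log2 intensity of every array on the y axis and the 3 sorts on the x axis. Points are arrays coloured by treatment with a shape for each replicate number, and horizontal lines are means of 3 arrays. For f10, zgc:174862 and suz12b the 9 Lycorine arrays lie apart from the 9 DMSO arrays, and for slc17a6b and pcdh1g29 they separate within each sort.

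Genes whose 9 Lycorine arrays did not overlap with the 9 DMSO arrays numbered 37 of 19247 (0.192%), 12 higher (0.0623%) and 25 lower (0.13%), and 35 of them were called. With the random block, 26 of them passed. Not overlapping within each of the 3 sorts, in the same direction, was a wider class of 243 genes (1.26%), of which 222 were called. All 12 rises of the narrower class and the 15 largest of its called falls are described next.

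The largest of the 12 rises was that of suz12b, a subunit of the Polycomb repressive complex that methylates histones, with DMSO arrays from 6.13 to 7.76 (median 7.09), Lycorine arrays from 7.87 to 8.90 (median 8.35) and a difference of 1.29 ± 0.19 (adjusted p = 0.00163). The chromatin remodelling factor gene rsf1a rose by 1.13 ± 0.17 and the histone demethylase gene kdm2ab by 1.00 ± 0.14. The gene zswim8, which in mammals and flies directs the destruction of Argonaute bound to certain targets, rose by 1.02 ± 0.13 (adjusted p = 0.000733), and tnrc6ba, a GW182 scaffold that Argonaute recruits, by 1.00 ± 0.18. The DMSO range of zswim8 was 7.37 to 8.33 and its Lycorine range 8.63 to 8.97. A smaller spread with Lycorine was common to most genes. The variance within groups was larger in DMSO for 84% of genes (median standard deviation 0.39 against 0.24). The ubiquitin ligase gene rlim rose by 1.07 ± 0.19 and cirsr by 1.02 ± 0.18.

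The other rises of this class were smaller. UNC13D, which primes secretory granules for release, rose by 0.91 ± 0.14, and the calmodulin gene calm3b by 0.61 ± 0.09, from a DMSO range of 9.76 to 10.02 to a Lycorine range of 10.32 to 10.68. Differences of 0.55 ± 0.15 for steep1, 0.51 ± 0.12 for psmc3, an ATPase of the proteasome, and 0.47 ± 0.12 for rbbp8, a DNA end resection factor, passed the additive test but not the fit with the random block (adjusted p = 0.0748, 0.0571 and 0.0689). The other 9 of the 12 rises passed both. They also passed in the additive fit without the DMSO arrays numbered 2, while steep1, psmc3 and rbbp8 did not (adjusted p = 0.132, 0.0758 and 0.0838). The difference of calm3b stayed at 0.61 there, and those of the rest of the 12 were smaller. Among these were suz12b at 1.05, rsf1a at 1.04, zswim8 at 0.90, rlim and cirsr at 0.82, tnrc6ba at 0.79 and UNC13D at 0.72.

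The largest fall of this class was that of zgc:174862, a gene named only by its clone. DMSO arrays lay between 5.49 and 7.19 with a median of 6.62, and Lycorine arrays between 3.93 and 4.76 with a median of 4.19. It fell by 2.29 ± 0.21 on the log2 scale (4.89-fold, adjusted p = 2.04e-05), with effects of -2.26, -2.08 and -2.54 in the 3 sorts, and by 2.60 without the DMSO arrays numbered 2, which held 3 of its 4 lowest DMSO levels. The transcripts si:ch73-295i22.2 (-1.38 ± 0.15, adjusted p = 0.000153) and LOC100535315 (-0.90 ± 0.13), both annotated as long noncoding RNAs, also fell, with a negative difference in each of the 3 sorts.

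The remaining named falls of this class were of between -0.96 and -0.63. The cyclin I gene ccni (-0.96 ± 0.19), pnpt1, the RNA degrading polynucleotide phosphorylase of mitochondria (-0.84 ± 0.16), and b3gnt5b, a glycosyltransferase of glycolipids (-0.79 ± 0.14), fell. The ribosome export adaptor gene nmd3, which carries the large subunit out of the nucleus, differed by -0.64 ± 0.14 (adjusted p = 0.017; 0.0562 with the random block). Next to it stood tbc1d7, a subunit of the TSC complex that restrains mTOR, with -0.69 ± 0.14, the carbonyl reductase gene dcxr with -0.70 ± 0.11, the solute carrier gene slc35f6 with -0.72 ± 0.11 and the N-terminal methyltransferase gene ntmt2 with -0.65 ± 0.12. The last 3 carry clone names only, 1 of them with a difference of -0.80 ± 0.14, zgc:158343 (-0.72 ± 0.17) and si:ch211-253b8.5 (-0.63 ± 0.17), and the latter pair missed the threshold with the random block (adjusted p = 0.0654 and 0.0805). For si:ch211-253b8.5 the difference was -0.33 without the DMSO arrays numbered 2.

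Genes were then taken by list. Since lists and members were chosen with earlier results of these data known, their counts and medians are descriptions and not tests. Over all genes 6.24% were called, 2.8% higher and 3.44% lower, with a median of -0.07, and each list's additive result is to be read against these values. Counts with the random block are to be read against 271 of 19247 genes (128 higher, 143 lower). Without the DMSO arrays numbered 2 the count over all genes was 620 (182 higher, 438 lower). Without the Lycorine arrays numbered 3 it was 81 (42 higher, 39 lower). The lists of tissues describe what the sorted cells held, since fewer cells of a type and less RNA per cell cannot be told apart in such samples.

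Of 31 measured inflammatory cytokines and chemokines, 0 were higher and 7 lower, with a median of -0.60. They were csf3b and its paralog csf3a, cxcl8a, cxcl18b, ccl20a.3, the itaconate enzyme acod1 and the matrix protease mmp9, of which csf3a, ccl20a.3 and acod1 are named only to complete the count, after their values were seen. The neutrophil chemokine gene cxcl8a had DMSO arrays from 7.01 to 9.17 (median 8.37) and Lycorine arrays from 6.06 to 7.43 (median 6.93), with a difference of -1.35 ± 0.24 (adjusted p = 0.00542). Its 3 DMSO arrays numbered 1 were the lowest of the DMSO arrays, at 7.01, 7.67 and 7.49. The chemokine gene cxcl18b (-0.90 ± 0.20) and mmp9 (-1.29 ± 0.32) fell as well. The random block fit called 3 members, and without the DMSO arrays numbered 2 the count was 4.

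The mean level of the inflammatory cytokines and chemokines on an array, relative to each gene's own mean, ran from -0.43 to 1.19 in DMSO and from -0.59 to 0.22 with Lycorine. The treatments overlapped within Runx+ cells, but not within negative or kdrl+ cells. In negative, Runx+ and kdrl+ cells, the arrays numbered 1 were at -0.19, -0.43 and 0.23 in DMSO and at -0.45, -0.49 and 0.22 with Lycorine. The DMSO arrays numbered 2 were at 0.48, 0.11 and 0.41, and those numbered 3 at 0.10, 1.00 and 1.19. Medians within the sorts were -0.55 in negative, -0.51 in Runx+ and -0.42 in kdrl+ cells. Of 24 measured myeloid genes, 0 were higher and 6 lower beside them, with a median of -0.56 and an array level from -0.50 to 1.49 in DMSO and from -1.02 to 0.90 with Lycorine. Among these, ctsc, a protease that activates granule enzymes, fell by 0.92 ± 0.17 (adjusted p = 0.00619). So did csf3r, the receptor of Csf3 (-0.69 ± 0.19), and coro1a, a leukocyte actin regulator (-0.87 ± 0.23). The call of mmp9 counts in both lists. The part of the myeloid genes in the inflammatory result was not tested. Of the 24 myeloid genes 1 passed with the random block, and 4 without the DMSO arrays numbered 2.

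Interferon-stimulated genes gave 0 higher and 3 lower of 29 (median -0.23), namely the transcription factor gene irf1b (-0.81 ± 0.21), isg15 (-0.79 ± 0.21) and the class I light chain gene b2m (-0.70 ± 0.21). None of the 3 passed with the random block (adjusted p = 0.0639, 0.0871 and 0.099), and 2 members of the list passed without the DMSO arrays numbered 2. Of 32 immediate early and AP-1 genes 0 were called, with 0 higher and 0 lower and a median of -0.06. Of 23 matrix metalloproteases and inhibitors, mmp9 alone was called, and it passed neither with the random block (adjusted p = 0.0626) nor without the DMSO arrays numbered 2 (adjusted p = 0.0758).

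Of 33 measured skeletal muscle genes, 0 were higher and 14 lower, the largest count of falls among the 37 lists, with a median of -0.45. The calcium buffer pvalb1 had DMSO arrays from 10.91 to 12.21 (median 11.74) and Lycorine arrays from 9.07 to 11.51 (median 9.87), and fell by 1.47 ± 0.28 (adjusted p = 0.00701). Its paralog pvalb2 (-1.17 ± 0.18), the muscle creatine kinase gene ckmb (-1.11 ± 0.19) and the fast myosin light chain gene mylpfb (-1.16 ± 0.21) fell too. The skeletal muscle level of an array ran from -0.88 to 1.24 in DMSO and from -1.28 to 0.85 with Lycorine, so the treatments overlapped, and 3 sorts had medians of -0.43, -0.51 and -0.69. The random block left 9 members called, and 11 passed without the DMSO arrays numbered 2. Without the Lycorine arrays numbered 3, 1 member passed.

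The calls of the hypoxia and glycolysis list included enzymes that muscle makes in bulk. Of 37 measured, 0 were higher and 7 lower (median -0.30), among them aldoab, an aldolase (-1.08 ± 0.27), pfkma, the muscle type of phosphofructokinase (-0.83 ± 0.21), and gpib, a glucose phosphate isomerase (-0.73 ± 0.18). The prolyl hydroxylase gene egln3, a target of the hypoxia-inducible factor, fell by 0.61 ± 0.13 (adjusted p = 0.0114) and was the only member to pass with the random block. Without the DMSO arrays numbered 2, 4 members of the hypoxia and glycolysis list passed. The part of muscle cells in these values was not tested.

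Genes of liver, exocrine pancreas and gut had the largest single differences and the least even control arrays. Of 36 measured, 0 were higher and 5 lower, with a median of -0.63. The trypsin gene prss59.1 stood at 10.81, 9.72 and 10.71 in the negative, Runx+ and kdrl+ DMSO arrays numbered 2, at 7.78, 9.52 and 6.76 in those numbered 3, and at 5.25, 5.24 and 4.90 in those numbered 1. In the 9 Lycorine arrays it lay between 3.37 and 5.20. The difference of -3.53 ± 0.75 (adjusted p = 0.0127) became -2.25 without the DMSO arrays numbered 2 (adjusted p = 0.0368). The elastase genes ela2l and ela2 differed by -2.37 ± 0.57 and -2.61 ± 0.65, and by -1.33 and -1.43 without those arrays, and the lipoprotein gene apoa1a differed by -1.63 ± 0.44, with -0.99 and no call without them (adjusted p = 0.112).

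On the array level of the liver, exocrine pancreas and gut list, the DMSO arrays numbered 2 stood at 2.06, 1.39 and 1.5 in negative, Runx+ and kdrl+ cells. The other 6 DMSO arrays were at 0.64 or lower, and all 9 Lycorine arrays were between -0.71 and -0.12. Without the DMSO arrays numbered 2 the list's median was -0.25, with 2 lower calls. The random block fit called 2 members as well. How far these cells entered the other lists was not tested.

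**Figure D3:**
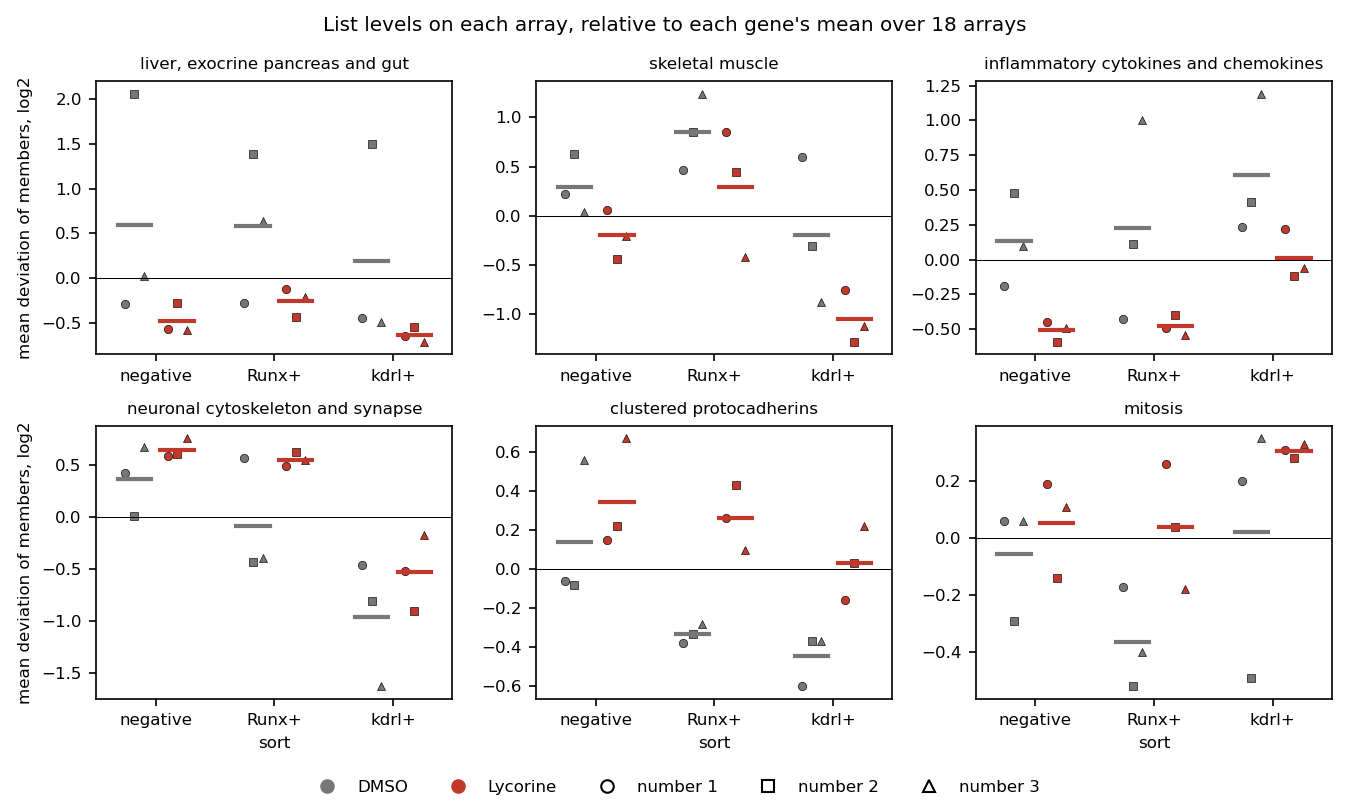
Each panel shows 1 gene list, with the mean log2 deviation of its members from their own means over 18 arrays on the y axis and the 3 sorts on the x axis. Points are arrays and lines are means of 3 arrays. The 3 DMSO arrays numbered 2 reach 2.06, 1.39 and 1.5 in the liver, exocrine pancreas and gut panel. Neuronal and protocadherin levels are higher with Lycorine in the mean of each sort, although neuronal arrays of the treatments overlap within each sort.

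Of 35 measured genes of the neuronal cytoskeleton and synapse list, 7 were higher and 0 lower, with a median of 0.46. For elavl4, which encodes an RNA binding protein of neurons, DMSO arrays ran from 6.26 to 9.69 (median 7.83) and Lycorine arrays from 7.74 to 10.05 (median 9.44), separated within each sort, and the gene rose by 1.38 ± 0.19 (adjusted p = 0.00116). The complexin gene cplx2a, which holds vesicles ready for release, rose by 1.40 ± 0.29, and the vesicle calcium sensors syt1a and syt2a by 0.85 ± 0.18 and 0.78 ± 0.15. The other called members, named after their values were seen, were sv2a, sncb and the tubulin gene tubb5.

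The neuronal cytoskeleton and synapse level of an array ran from -1.63 to 0.68 in DMSO and from -0.90 to 0.76 with Lycorine. Medians within the sorts were 0.20 in negative, 0.66 in Runx+ and 0.42 in kdrl+ cells. The array levels of the treatments overlapped within each sort. In kdrl+ cells they were -0.46, -0.81 and -1.63 in DMSO and -0.52, -0.90 and -0.17 with Lycorine (numbers 1, 2 and 3). In the fit with the random block 4 members passed, and 4 also without the DMSO arrays numbered 2, where the median was 0.30. Neurotransmitter transporters and synthesis enzymes as a list did not follow, with 1 higher, slc17a6b, and 1 lower of 36 and a median of -0.03. The lower one was glulb, glutamine synthetase, by background a gene of glia (-0.54 ± 0.12, adjusted p = 0.0184). With the random block its adjusted p was 0.0629.

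Of 28 measured clustered protocadherins, 8 were higher and 0 lower, with a median of 0.36. Besides pcdh1g29, pcdh1gc5 rose by 1.57 ± 0.29, from a DMSO range of 2.99 to 7.30 to a Lycorine range of 5.51 to 7.53, and pcdh2g13 and pcdh2g28 by 0.73 ± 0.16 and 0.77 ± 0.18. These genes share near-identical exons, so a probe set can read several of them and the count of 8 may hold fewer separate signals. DMSO negative replicate 3 stood above the other DMSO arrays in the mean of this list. Of the 8, 3 passed with the random block, and 5 without the DMSO arrays numbered 2. Tissue lists of the eye, the photoreceptors and the lens crystallins, had 0 of 30 and 0 of 30 members called, with medians of 0 and -0.12. The photoreceptors had 2 higher calls and a median of 0.28 without the DMSO arrays numbered 2.

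Of 51 measured mitosis genes, 8 were higher and 0 lower, with a median of 0.24. DNA topoisomerase gene top2a had DMSO arrays from 7.20 to 8.40 (median 7.51) and Lycorine arrays from 8.11 to 8.78 (median 8.40), and rose by 0.74 ± 0.15 (adjusted p = 0.011). The spindle checkpoint kinase gene bub1bb rose by 0.90 ± 0.21, and the kinetochore genes cenph and knl1 by 0.65 ± 0.14 and 0.71 ± 0.18. With the random block 3 mitosis genes passed. Without the DMSO arrays numbered 2 the count was 1 and the median 0.08. DNA replication genes had 2 higher and 0 lower of 44 (median 0.11), the polymerase subunit gene pold3 (0.68 ± 0.15) and the ligase gene lig1 (0.72 ± 0.19). The call of lig1 was lost with the random block (adjusted p = 0.0738), and both were lost without the DMSO arrays numbered 2 (adjusted p = 0.0571 for pold3 and 0.0635 for lig1).

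The lists that touch protein synthesis showed few calls. Of 65 cytosolic ribosomal proteins, 1 was higher and 1 lower, with a median of -0.06 and effects between -0.40 and 0.34. The higher one was rps26 (0.34 ± 0.10, adjusted p = 0.05, just under the threshold before rounding) and the lower one rps10 (-0.40 ± 0.11, adjusted p = 0.0391), with DMSO arrays from 11.47 to 11.89 and Lycorine arrays from 10.85 to 11.50. Neither passed with the random block (adjusted p = 0.112 for rps26 and 0.105 for rps10) or without the DMSO arrays numbered 2. Of 56 translation initiation and elongation factors, eef1db, an exchange factor subunit for elongation factor eEF1A, fell by 0.56 ± 0.12, with the highest Lycorine and the lowest DMSO array both near 8.73 and the groups just apart, and eif5b, which joins the ribosomal subunits, rose by 0.65 ± 0.18. Aminoacyl-tRNA synthetases had 0 calls of 20, members of the heat shock list 0 of 21, and ER chaperones 1 of 26, the disulfide isomerase gene pdia6 (-0.55 ± 0.16). The called gene hsc70 lay outside the heat shock list and is given with the other observations. The random block fit kept eef1db (adjusted p = 0.0462) but not eif5b (0.0888) or pdia6 (adjusted p = 0.099). The additive fit without the DMSO arrays numbered 2 called eef1db (-0.67, adjusted p = 0.017) and pdia6 (-0.79, adjusted p = 0.00964), but not eif5b (adjusted p = 0.0693). It also called the factor gene eif3g (-0.66, adjusted p = 0.0295) and the ER chaperone list's herpud1 (-0.62, adjusted p = 0.0272), which were not called on all arrays.

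Ribosome biogenesis and RNA polymerase I genes gave 3 higher and 0 lower of 72 (median 0.08), the small subunit processome genes mphosph10 (0.86 ± 0.15, adjusted p = 0.00542) and wdr46 (0.85 ± 0.18) and the helicase gene ddx49 (0.52 ± 0.14). The last of these did not pass with the random block (adjusted p = 0.104) or without the DMSO arrays numbered 2 (adjusted p = 0.0593). Nonsense-mediated decay factors gave 2 higher and 0 lower of 14 (median 0.06), upf3a (0.68 ± 0.17) and upf3b (0.80 ± 0.22), adaptors between the exon junction complex and the decay machinery. Neither passed with the random block or without the DMSO arrays numbered 2. Proteasome subunits gave 3 higher and 0 lower of 40 (median 0.13), psmc3, psma3 (0.53 ± 0.14) and psmc1a (0.54 ± 0.15). None of the 40 proteasome subunits was called with the random block (adjusted p = 0.0571, 0.0772 and 0.0871 for those 3) or without the DMSO arrays numbered 2, where the median was -0.05.

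Of 29 measured integrated stress response genes, 0 were higher and 4 lower, with a median of -0.31. They included the transcription factor gene atf4a itself, with DMSO arrays from 10.20 to 11.19 (median 10.56), Lycorine arrays from 9.45 to 10.46 (median 10.22) and a difference of -0.57 ± 0.15 (adjusted p = 0.0313). The mTOR inhibitor gene ddit4 (-0.76 ± 0.17), the serine hydroxymethyltransferase gene shmt2 (-0.59 ± 0.15) and the hormone gene fgf21 (-0.57 ± 0.15) were the other 3. In the random block fit the adjusted p of the 4 genes ranged from 0.0514 to 0.0836, so none passed. Of 21 p53 target genes, ccng1, a cyclin that p53 induces, fell by 0.45 ± 0.12 and the others were not called (median -0.25). That call was lost with the random block (adjusted p = 0.0986). In each of these lists 1 member passed without the DMSO arrays numbered 2.

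Of 63 nuclear-encoded oxidative phosphorylation genes, 3 were higher and 0 lower, with a median of -0.07 that equals that of all genes. The iron-sulfur subunit gene uqcrfs1 of complex III ranged from 6.10 to 7.87 in DMSO (median 6.70) and from 7.80 to 8.80 with Lycorine (median 8.27), and rose by 1.45 ± 0.23 (adjusted p = 0.00276). Only DMSO kdrl+ replicate 1, at 7.87, lay within the Lycorine range. The flavoprotein gene sdha of complex II rose by 0.72 ± 0.13 and uqcrc1 of complex III by 0.48 ± 0.14. The last of these was not called with the random block (adjusted p = 0.112) or without the DMSO arrays numbered 2 (adjusted p = 0.0862).

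Of the lists that name the sorted cells, 2.13% of the endothelial and 9.52% of the HSPC genes were called, against 6.24% of all genes. For the erythroid list the share was 6.25%. Of 47 endothelial genes, 0 were higher and 1 lower (median 0.05), gpr182, an endothelial receptor that takes up chemokines (-0.73 ± 0.19). Medians within the sorts were -0.15 in negative, -0.03 in Runx+ and 0.44 in kdrl+ cells. Of 21 HSPC genes, 0 were higher and 2 lower (median -0.33), spi1a, a transcription factor of myeloid fate (-0.70 ± 0.16), and coro1a, both of which mature leukocytes express too. The HSPC medians within the sorts were smaller, at -0.12 in negative, -0.31 in Runx+ and -0.08 in kdrl+ cells. Of 16 erythroid genes, 1 was lower, the globin gene hbbe2 (-0.99 ± 0.23), with a median of -0.41. None of these 4 calls held with the random block (adjusted p = 0.0784 for gpr182, 0.0594 for spi1a, 0.0861 for coro1a and 0.0629 for hbbe2). Without the DMSO arrays numbered 2 the lower calls were 1 of the endothelial genes, 2 of the HSPC genes and 2 of the erythroid genes, with medians of 0.02, -0.45 and -0.67.

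Among further tissue and pathway lists, 7.89% of epidermis and 6.67% of mesenchyme and cartilage genes were called, near the 6.24% of all genes. The other lists given here lay below that share, at 5.56% or less. Epidermis had 0 higher and 3 lower of 38 (median -0.36), lgals3b (-0.80 ± 0.18), the claudin gene cldni (-0.95 ± 0.23) and epcam (-0.83 ± 0.25), and 0 calls with a median of -0.07 without the DMSO arrays numbered 2. Mesenchyme and cartilage had 2 lower of 30, the chemokine gene cxcl12a (-0.72 ± 0.20) and the collagen cross-linking gene loxa (-0.49 ± 0.14), while collagens had 0 of 34 called at a median of -0.36 and pigment and neural crest genes 0 of 24. Circadian clock genes gave 1 higher, nfil3-5 (0.73 ± 0.20), and 1 lower, tefb (-0.50 ± 0.13), of 36. Of 35 xenobiotic and Nrf2 response genes, the drug oxidase gene cyp3a65 was lower (-0.79 ± 0.23), and of 31 sterol and fatty acid synthesis genes the malic enzyme gene me1 (-0.57 ± 0.14). With the random block none of the circadian, xenobiotic, sterol and mesenchyme calls passed (adjusted p = 0.0762 for nfil3-5, 0.0787 for tefb, 0.105 for cyp3a65, 0.068 for me1, 0.0828 for cxcl12a and 0.125 for loxa), and of the epidermis calls lgals3b alone did (adjusted p = 0.0492).

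**Figure D4:**
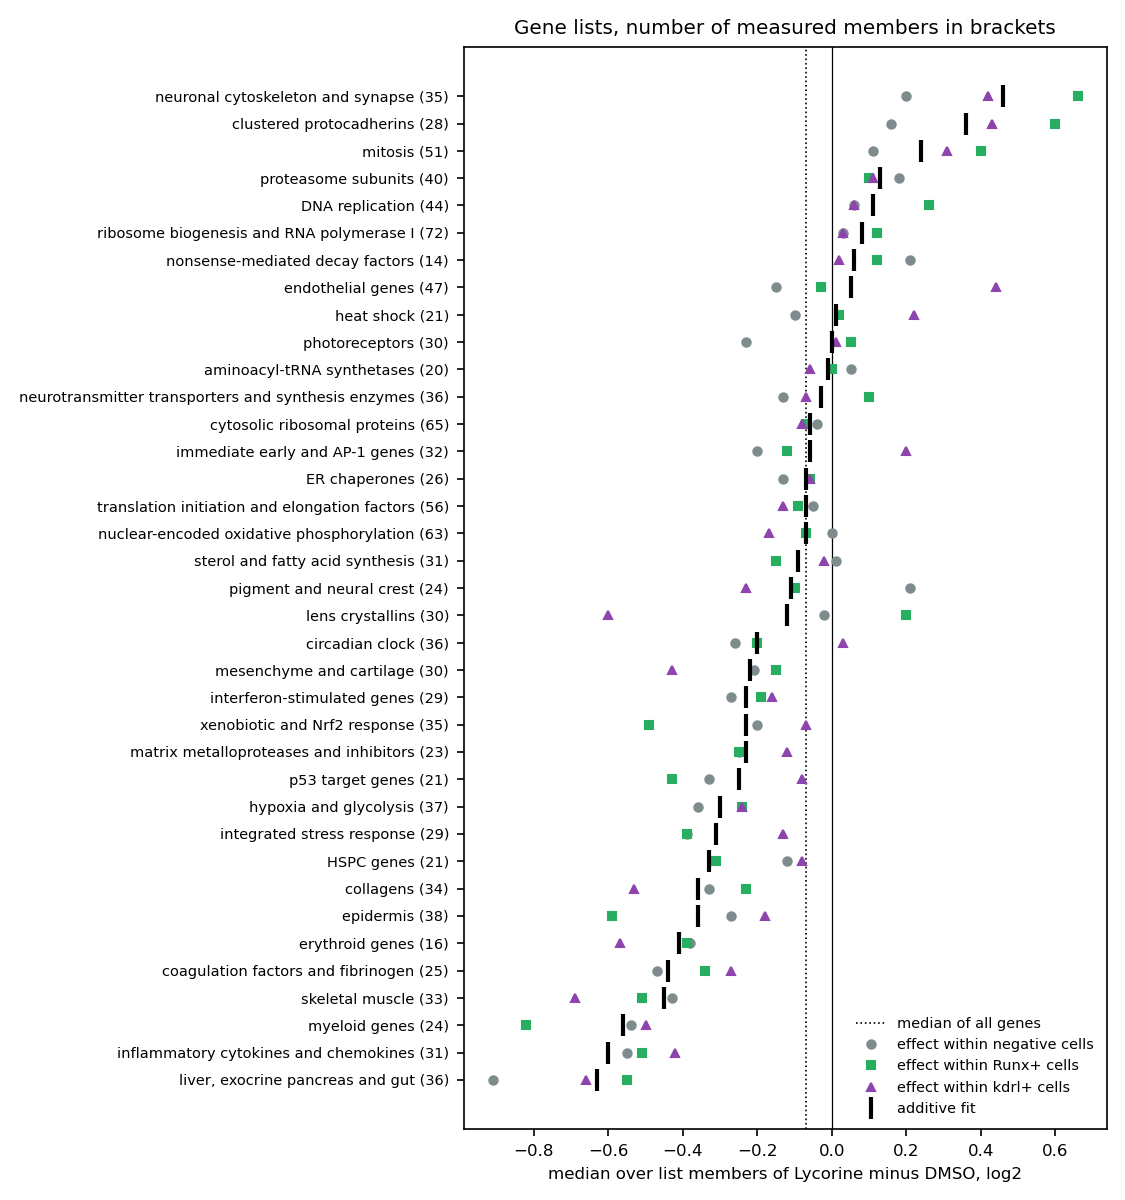
For each of the 37 lists the black bar is the median over measured members of the log2 difference of Lycorine minus DMSO in the additive fit, and the coloured points are the same within each sort. The dotted line is the median of all genes, -0.07. The highest median is that of the neuronal cytoskeleton and synapse list at 0.46 and the lowest that of liver, exocrine pancreas and gut at -0.63.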

How the data were processed

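Per the submitters' processing notes, the tools were oligo, limma and RMA, whose versions are not named there. The authors' deposited table holds log2 values of 65528 probe rows on 18 arrays. RMA corrects background, normalizes by quantiles and summarises probes, which holds array distributions alike and cannot show a change that most transcripts share. Of the rows, 20806 had exactly 1 symbol, 855 several and 43867 none. Names were updated through RefSeq tables of GRCz12tu (20323 rows matched on Entrez identifier, 72 on symbol and 43 on synonym, while 368 kept the array's name). Each gene was read from its row with the highest mean over 18 arrays, which left 19247 genes with no filter on dim ones, and 1372 had several rows. The number of arrays limits the precision.

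Tests were 2-sided in limma 3.58.1 under R 4.3.3. They were treatment plus sort on 18 arrays (19.5 degrees of freedom), the means of same-numbered arrays (8.1) and a treatment by sort interaction (17.4). A further fit added treatment and number as a random block to the first of these. Each had Benjamini-Hochberg adjustment over all genes at 0.05. The scripts were tested on simulated data with independent noise of equal spread in both treatments. That test does not bear on arrays that share a number or on the larger spread in DMSO. Tables were made with Python 3.11.15 and pandas 2.3.3, and figures with matplotlib 3.10.9. Named genes were the 15 largest rises and falls among called genes with arrays that did not overlap (12 rises qualified), 4 genes given for the comparison, up to 4 members of each list by smallest p, kdrl, runx1 and itga2b, the 5 smallest interaction p and called genes with no common sign. The members and lists were chosen with earlier results of these data known. Across treatments, deviations of same-numbered arrays had a median correlation of 0.02 (27 pairs). Within a sort the values for numbers 1, 2 and 3 were 0.28, 0.31 and 0.15 in negative cells. They were -0.01, -0.01 and -0.09 in Runx+ cells and 0.07, -0.03 and -0.11 in kdrl+ cells. The numbers were not used as a pairing in the main fit.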

Additional observations from a re-analysis of the deposited data

Results flagged for a closer look

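In 280 sets of 9 arrays of 1 treatment, for the named genes and the lists, with each sort's mean removed, the highest or lowest array was compared with its neighbour. In 17 of them it lay farther off than Dixon's 95% criterion allows (a gap over 0.493 of the range), and chance gives about 1 in 20. The values below are log2 deviations of the array that stood apart. With Lycorine, kdrl+ replicate 1 stood apart for cirsr at 1.03, steep1 at 0.81 and ccni at -1.74, and for the inflammatory cytokines and chemokines at -0.09. Lycorine Runx+ replicate 3 stood apart for lgals3b at -1.23 and for the lists of epidermis at -0.65, aminoacyl-tRNA synthetases at -0.22 and xenobiotic and Nrf2 response genes at -0.38. Lycorine kdrl+ replicate 2 was at -0.30 for upf3a, and Lycorine negative replicate 3 at -0.80 for si:ch211-253b8.5. In DMSO, negative replicate 3 stood apart for pcdh1g29 at 0.16, the clustered protocadherins at 0.32, ccni at 0.08 and uqcrc1 at -0.87. DMSO kdrl+ replicate 1 was at 0.93 for dcxr, kdrl+ replicate 3 at 1.69 for ccl38.1 and Runx+ replicate 3 at 0.60 for the matrix metalloproteases and inhibitors. Deviations are from the mean over both treatments of a sort.

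Probe rows with no gene symbol were outside the gene comparison. In the additive limma fit on all 65528 rows, 4631 of the 43867 rows with no symbol were called (10.6%), 3318 higher and 1313 lower. Of the 21661 rows with a symbol, 1694 were called (7.82%), 763 higher and 931 lower. The median level was 4.38 for rows with no symbol and 5.87 for those with one.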

How the results depend on the processing

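The additive fit called 1201 genes. Cyclic loess, median centring, trended and robust variances, leaving out dim genes, means of a gene's rows, array weights and a fit of 6 group means gave 982 to 1748. The count was 271 with arrays of one treatment and number as a random block and 2 on their means. It was 39 without the negative sort, 51 without Runx+ and 144 without kdrl+ cells. Leaving out 1 array gave 631 (without Lycorine negative replicate 3) to 1838 (without DMSO Runx+ replicate 1), with 768 without DMSO negative replicate 2. Without the other single Lycorine arrays it was 798 (negative 1), 738 (Runx+ 1), 743 (kdrl+ 1), 993 (negative 2), 637 (Runx+ 2), 934 (kdrl+ 2), 897 (Runx+ 3) and 728 (kdrl+ 3). Leaving out a number in both treatments gave 567, 35 and 332 (numbers 1, 2 and 3), in DMSO 2695, 620 and 1837, and with Lycorine 153, 275 and 81. The cause was not tested.

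On the means, where 2 genes were called, loess and centring each gave 4, trended and robust variances 7 and leaving out dim genes 8, and leaving out a number gave 0 to 564 (without DMSO replicate 1). The interaction had 0 calls except for 3 without DMSO kdrl+ replicate 3. The replicate number as a block gave 1699 genes in the additive fit (736 higher, 963 lower), 1199 of them among the 1201. It gave 0 on the means and 0 for the interaction. Across treatments, same-numbered arrays deviated together within negative cells, but not within Runx+ or kdrl+ cells. Over all settings the 99 called named genes kept their sign, which adds little support. Most were named by size or p in this same fit. The fits with the random block and on the means give the same differences by the balance of the design. Not called, kdrl turned from -0.11 to 0.05 without the negative sort and to 0.05 without Runx+ cells.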

Other observations

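Some of the largest called differences lay outside the naming rule, because their 9 and 9 arrays overlapped, and are given here as chosen after their values were seen. Among rises these were shisa7b, which encodes an auxiliary protein of neurotransmitter receptors (1.96 ± 0.26, adjusted p = 0.00088), tnnt2b, a troponin T gene (1.88), fjx1 (1.63), the forebrain and eye transcription factor gene otx1 (1.60) and lmo3 (1.46), all in the additive limma fit. Among falls they included slc25a4, the adenine nucleotide carrier of the mitochondrial membrane (-1.95), and hsc70 (-1.68). The heat shock list, with differences from -0.50 to 0.46, did not hold hsc70. The skeletal muscle list, with differences from -1.52 to 0.22, did not hold tnnt2b. The counts of these lists therefore cover their chosen members only.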
